A study of Mus musculus with 3 samples.

Results

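Among deeply sequenced pancreatic beta cells, those without a single transcript read of Ucn3 were examined in mice of 9 months. Ucn3-negative deep beta cells were chosen as barcodes with at least 500 genes, at least 10000 unique molecular identifiers (UMIs, which count captured transcript molecules), at most 20% mitochondrial UMIs and at least 25% of UMIs from Ins1 and Ins2 together. In addition Gcg, Sst and Ppy each had to stay under 2% of UMIs, and Ucn3 had to be at 0. This left 807 cells of the 12363 that met the other limits (the gated beta cells), out of 36681 barcodes in all. There were 229 such cells in the library labelled ASF-KO, 478 in the library labelled SC35-KO and 100 in WT, 3 libraries with 1 per genotype. ASF is an older name of the splicing factor SRSF1 and SC35 of SRSF2, and the labels give neither the deleted exons, nor the cells in which they were deleted, nor how many animals each library holds. Islets were picked by hand after collagenase digestion, dissociated and captured in droplets with a kit that reads the 3' ends of transcripts. Where 3 values follow each other without names, they stand in the order ASF-KO, SC35-KO and WT.

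Ucn3 encodes urocortin 3, a peptide of the corticotropin-releasing factor family. In mice it is made by beta cells as they mature, is stored with insulin and released with it, and acts on delta cells, which answer with somatostatin that restrains further insulin release. Loss of Ucn3 is widely used as a mark of immature or dedifferentiated beta cells, and a small share of beta cells without it is known at the islet edge of healthy mice. The transcription factor Mafa, the glucose transporter Slc2a2 and the glucose-6-phosphatase G6pc2 are other marks of the mature state, while Npy, Pyy and Cd81 are linked to immature beta cells.

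Ucn3 (ENSMUSG00000044988) lies on the minus strand of chromosome 13 of GRCm38 from 3940688 to 3945349, with 2 exons. The 250 bases before its start, at chr13:3945350-3945599 on the minus strand of GRCm38.p6 from RefSeq, are shown because this is the gene whose absence from the counts defines the cells. Capitals mark the letters TAAT, or ATTA on the other strand, the core read by homeodomain factors such as those of the Pdx and Nkx families.
Ucn3 promoter: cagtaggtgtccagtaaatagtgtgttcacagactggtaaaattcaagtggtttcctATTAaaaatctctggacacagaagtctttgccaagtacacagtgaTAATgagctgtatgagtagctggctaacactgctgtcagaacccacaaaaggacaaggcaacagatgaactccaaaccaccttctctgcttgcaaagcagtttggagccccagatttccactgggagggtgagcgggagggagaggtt
The core was found 2 times over both strands, and 55.3% of 27025 promoters of the same length hold it at least once. The E-box CANNTG, read by factors such as Neurod1, was found 2 times as well, and 66.0% of promoters hold it. TGCTGA, a core of sites for Maf factors, was found 0 times on either strand, and 15.8% of promoters hold it.

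The share of gated beta cells without Ucn3 was 6.10% in the library labelled ASF-KO (5.36 to 6.92, exact binomial interval), 11.1% in the library labelled SC35-KO (10.2 to 12.1) and 2.32% in WT (1.89 to 2.82). Intervals are 95% intervals and cover counting error only. With 1 library per genotype no difference between genotypes was tested. Ucn3 itself stood at 172, 157 and 313 CPM (UMI counts scaled to the summed depth of the cells) over all gated beta cells, so WT held the highest level and the smallest share at 0. Shares moved with depth. Median depths of the gated cells were 27126, 18892 and 23338 UMIs, and with every cell thinned to 10000 UMIs the shares were 24.5%, 26.2% and 8.27%. After this thinning a uniform Ucn3 level at each library's mean would leave 18.1%, 20.4% and 4.38% at 0. Insulin took 63.9%, 63.6% and 53.7% of UMIs in gated cells. Equal totals thus held fewer UMIs of other genes under both KO labels. The Ucn3 CPM values share that limit, and its part was not tested. Counting only cells with 20000 UMIs or more, the shares were 4.03%, 5.85% and 0.683%, the last from 21 WT cells.

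Within each library the share was lower in deeper cells. It was 19.2% of cells with 10000 to 15000 UMIs in the library labelled ASF-KO, 22.0% in the library labelled SC35-KO and 11.95% in WT. Between 20000 and 30000 UMIs it was 5.64%, 6.55% and 0.873%. At 50000 UMIs or more no cell was negative, 0 of 181, 0 of 25 and 0 of 97, which allows shares of up to 1.66%, 12% and 3.09% at a limit of 3 cells, and of up to 2.02%, 13.7% and 3.73% by the exact intervals. If every gated cell of a library held Ucn3 at that library's mean level, counting alone would leave 1.90%, 6.47% and 0.286% of cells at 0, or 71.2, 278 and 12.3 cells where 229, 478 and 100 were seen. These figures describe the libraries and were not tested. Close to the limit, 376, 744 and 187 gated cells held 1 Ucn3 UMI. Just outside the depth limit, 6, 55 and 8 barcodes lay less than 10% under it and met every other rule.

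**Figure D1:**
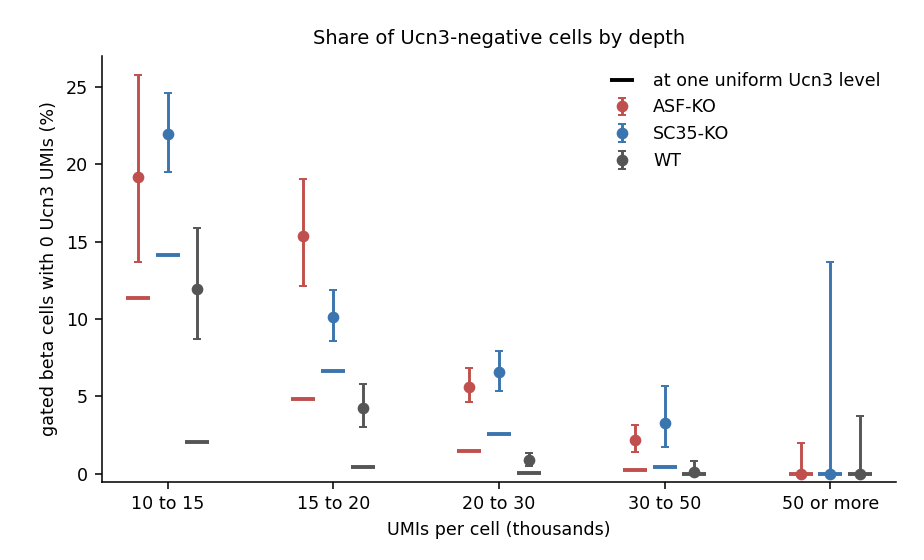
Share of gated beta cells with 0 Ucn3 UMIs (vertical axis, %) in 5 bins of UMIs per cell (horizontal axis), for the libraries labelled ASF-KO, SC35-KO and WT; points carry exact 95% binomial intervals and short bars mark the share that a uniform Ucn3 level would leave at 0. Shares are lower at greater depth in each library, and in the 4 bins under 50000 UMIs the points lie above their bars.

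Free RNA in droplets can put UMIs of a gene into cells that do not make it, so Ucn3 was read in other cell types. Alpha cells (Gcg at 10% of UMIs or more and insulin under 10%) held Ucn3 at 10.8, 11.3 and 17.8 CPM, and endothelial cells, gated on their markers, at 26.5, 19.4 and 34.4 CPM. Among alpha cells with 10000 UMIs or more, thinned to 10000 UMIs, 8.53%, 10.8% and 15.7% had a Ucn3 UMI, against 75.5%, 73.8% and 91.7% of gated beta cells thinned alike. Unthinned, the shares were 9.95%, 12.1% and 19.4% of alpha cells (medians of 11655, 11522 and 12132 UMIs) and 93.9%, 88.9% and 97.7% of gated beta cells. The source of these UMIs was not tested, and some cells with 1 or 2 Ucn3 UMIs may hold no more than alpha cells do.

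For every Ucn3-negative cell the Ucn3-positive cell of the same gate and library nearest in total UMIs was taken, without reuse, so that 229, 478 and 100 cells were compared with as many. Median depths were 21009, 15323.5 and 16628.5 UMIs in Ucn3-negative cells, against 21006, 15323 and 16632.5 UMIs in matched Ucn3-positive cells. All Ucn3-positive cells were deeper, at medians of 27536.5, 19477 and 23469 UMIs. Ucn3-negative cells held medians of 3181, 2473 and 3187.5 genes, against 3158, 2439.5 and 3096.5 in matched Ucn3-positive cells. Insulin took 60.8%, 62.3% and 48.8% of their summed UMIs, against 62.0%, 62.3% and 51.1%, and mitochondrial genes took 2.75%, 2.46% and 2.88%, against 3.11%, 2.74% and 3.40%. Scrublet marked 3, 20 and 2 Ucn3-negative cells as doublets, against 4, 13 and 2 matched Ucn3-positive cells. Over all barcodes 120 sequences occurred in more than 1 library, 7 of them among gated beta cells and 0 among Ucn3-negative cells. Srsf1 had 43.2, 45.5 and 39.7 CPM in Ucn3-negative cells, against 34.9, 33.8 and 36.1 CPM in matched Ucn3-positive cells. Srsf2 had 54.8, 32.7 and 33.8 CPM, against 51.0, 26.5 and 30.8 CPM. By CPM, Srsf1 under ASF-KO stood above WT in Ucn3-negative cells and slightly below in matched Ucn3-positive cells. Srsf2 under SC35-KO stood below WT in both classes by CPM. The median gene with enough counts also stood below WT by CPM. Its log2 ratios in Ucn3-negative and matched Ucn3-positive cells were -0.42 and -0.41 under ASF-KO, and -0.51 and -0.45 under SC35-KO. A CPM slightly below WT therefore does not show a lower level of a targeted gene. Reads of 3' ends that lie outside a deleted part check nothing, so the labels could not be checked by the targeted genes.

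Iapp and Nkx6-1, which the gate did not use, were present in both classes, while other beta cell genes described below were lower. Iapp, the amyloid peptide released with insulin, had 39969, 51149 and 46027 CPM in Ucn3-negative cells, against 41541, 54290 and 45492 CPM in matched Ucn3-positive cells. Nkx6-1, a factor required for beta cell identity, had 125, 152 and 187 CPM, against 133, 149 and 196 CPM. Ins2 was at 472124, 468279 and 372867 CPM, against 478424, 459576 and 381623 CPM, and Ins1 at 136327, 154878 and 115514 CPM, against 141916, 162985 and 129542 CPM. Both insulin genes were part of the gate, so these values are a description.

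UMIs were summed per library and class, and the 6 sums were compared with edgeR's quasi-likelihood test with the library as a block. Since the replicates are libraries of 3 genotypes, the spread holds genotype too. At an adjusted p under 0.05 (Benjamini-Hochberg over 10443 genes) 117 genes differed, 1.12% of those tested. In Ucn3-negative cells 63 were higher (0.603%) and 54 lower (0.517%). Of these, 58 and 54 had the same sign in all 3 libraries, as had 3180 of all 10443 genes tested. The calls came from a fit over the same 3 libraries, so this agreement is no separate support. With edgeR's robust estimation, which gives genes that vary unusually between libraries a weaker prior, 145 genes were called (1.39%), 104 of them shared. DESeq2's Wald test called 5 higher and 9 lower among the 1317 genes to which it gave an adjusted p. In cells with 20000 UMIs or more, which leaves 21 WT cells, edgeR called 9 higher and 3 lower. Without the library block edgeR called 0 in either direction, with 92 higher and 69 lower at an unadjusted p under 0.05.

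Genes of mature beta cells were lower in Ucn3-negative cells, among them Mafa, which is counted with the transcription factors. Of 18 tested genes of beta cell maturity and glucose sensing, 8 fell and 1 rose, where 0.517% and 0.603% of all genes did, with a median log2 ratio of -0.22, against -0.01 over all genes tested. Mafa, an activator of insulin transcription that marks adult beta cells, had 153 CPM in Ucn3-negative cells labelled ASF-KO, 114 CPM in those labelled SC35-KO and 115 CPM in those of WT, against 228, 151 and 271 CPM in matched Ucn3-positive cells. It was lower in all 3 libraries, most in WT, where the ratio was 0.425 (0.357 to 0.503, exact interval of a ratio of counts). The fitted log2 ratio was -0.68 ± 0.08 (SE), with an edgeR adjusted p of 5.1e-08. With robust estimation the adjusted p was 0.56, and with DESeq2 0.16. Thinned to 10000 UMIs, a Mafa UMI was found in 57.6%, 53.3% and 39.0% of Ucn3-negative cells, against 71.6%, 62.1% and 78.0% of matched Ucn3-positive cells.

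Glucose handling genes followed. G6pc2, which turns glucose-6-phosphate back into glucose in beta cells, had 210, 247 and 294 CPM in Ucn3-negative cells, against 297, 303 and 507 CPM in matched Ucn3-positive cells. Its log2 ratio was -0.54 ± 0.06 (SE; edgeR adjusted p = 1.2e-07), and it was called with robust estimation and DESeq2 as well. In cells with 20000 UMIs or more the call of G6pc2 ended (log2 -0.33, edgeR adjusted p = 0.15), while that of Mafa held (log2 -0.53, edgeR adjusted p = 0.0012). Slc2a2, the main glucose transporter of rodent beta cells, had 107 and 230 CPM in Ucn3-negative cells labelled ASF-KO and WT, against 155 and 364 CPM in matched Ucn3-positive cells. In the library labelled SC35-KO it had 180 CPM, against 187 CPM, close to equal. Its log2 ratio of -0.41 ± 0.07 passed in edgeR (adjusted p = 0.00035) but not with robust estimation (adjusted p = 0.69). Slc2a2, like Glp1r, Slc30a8 and Sytl4 below, is named after its values were seen.

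The other called members of the maturity list act in signalling, secretion and folding. Trpm5, a calcium-activated cation channel that promotes glucose-induced electrical activity, had 27.7, 48.2 and 48.6 CPM in Ucn3-negative cells, against 37.1, 61.9 and 96.0 CPM (log2 -0.54, edgeR adjusted p = 0.00029). Glp1r, the receptor of the incretin GLP-1, had 313, 277 and 319 CPM, against 370, 312 and 411 CPM (log2 -0.29, edgeR adjusted p = 0.00087). Ero1lb, an endoplasmic reticulum (ER) oxidase that helps proinsulin fold, had 406, 290 and 356 CPM, against 499, 321 and 478 CPM (log2 -0.32, edgeR adjusted p = 0.00029). These genes were lower in all 3 libraries, and the calls of Glp1r and Ero1lb ended when cells rich in Pyy, described below, were left out. The zinc transporter Slc30a8 (log2 -0.27), the granule protein Sytl4 (-0.41) and the cytochrome oxidase subunit Cox6a2 (-0.69) fell too. The call of Slc30a8 ended without WT and that of Sytl4 without the library labelled SC35-KO.

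Cltrn, also called Tmem27 or collectrin, was the only member of the maturity list that rose, with 393, 396 and 457 CPM in Ucn3-negative cells, against 275, 309 and 225 CPM in matched Ucn3-positive cells. Its log2 ratio was 0.53 ± 0.07 (edgeR adjusted p = 5.7e-07; with robust estimation 0.13). Members that did not pass included Iapp (log2 -0.09), the fatty acid receptor Ffar1 (-0.17) and the prolactin receptor Prlr (-0.15).

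Apart from Mafa, no factor of beta cell identity passed the test. Of 17 tested transcription factors 1 fell and 0 rose, where 0.517% and 0.603% of all genes did, and the median log2 ratio was 0.00. Pdx1, which activates the insulin genes, had 79.3, 46.6 and 56.9 CPM in Ucn3-negative cells, against 72.3, 45.2 and 68.7 CPM (log2 -0.01). Neurod1 had 130, 119 and 201 CPM, against 121, 116 and 258 CPM (log2 -0.08), and Pax6 181, 166 and 305 CPM, against 170, 153 and 313 CPM (log2 0.02). In WT several stood lower, with Nkx2-2 at a log2 ratio of -0.62, Neurod1 at -0.43 and Pdx1 at -0.34, while in both libraries labelled KO these 3 stood between 0.02 and 0.16. The list median was -0.22 in WT, against 0.02 in each library labelled KO. Whether WT differs from the others here cannot be tested with 1 library each.

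**Figure D2:**
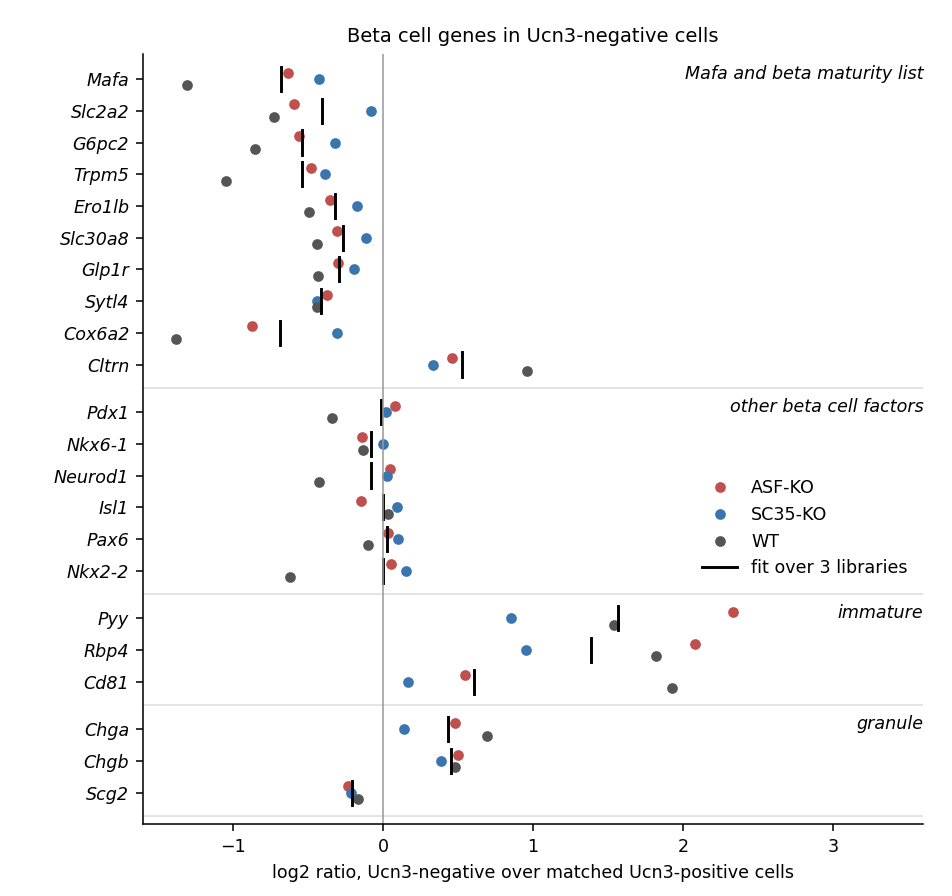
Log2 ratio of CPM in Ucn3-negative over matched Ucn3-positive cells (horizontal axis) for genes in rows, with 1 point per library (ASF-KO, SC35-KO and WT) and a black tick for the fit over 3 libraries. Mafa and the 8 called genes of the maturity list that were lower lie left of 0 in every library, other beta cell factors scatter around 0, and Pyy, Rbp4, Cd81, Chga and Chgb lie right of it.

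Genes of immature beta cells rose, and the largest values came from few cells. Of 7 tested members of this list 3 rose and 0 fell, where 0.603% and 0.517% of all genes did, with a median log2 ratio of 0.61. Pyy, peptide YY, is made in fetal islets and in adult gamma and some alpha and delta cells. It had 3630, 1706 and 3552 CPM in Ucn3-negative cells, against 694, 930 and 1167 CPM in matched Ucn3-positive cells. Pyy was higher in all 3 libraries, with a log2 ratio of 1.57 ± 0.11 (edgeR adjusted p = 4.3e-13), and the ratio varied from 1.83 under SC35-KO to 5.23 under ASF-KO. With robust estimation its adjusted p was 0.52.

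Rbp4, the retinol carrier that immature beta cells and delta cells express, had 44.2, 58.0 and 110 CPM in Ucn3-negative cells, against 10.0, 29.5 and 29.6 CPM (log2 1.38 ± 0.12, edgeR adjusted p = 9.5e-11, with robust estimation 0.014). In cells with 20000 UMIs or more the call of Rbp4 ended (log2 0.11, edgeR adjusted p = 0.996). Thinned to 10000 UMIs, 14.8%, 16.1% and 30% of Ucn3-negative cells had an Rbp4 UMI, against 7.86%, 14.02% and 8% of matched Ucn3-positive cells. The top 5% of Ucn3-negative cells held 70.9%, 77.5% and 47.6% of its UMIs. Cd81, a tetraspanin of immature and stressed beta cells, had 75.9, 68.5 and 158 CPM, against 49.99, 59.9 and 39.7 CPM (log2 0.61, edgeR adjusted p = 0.0022, with robust estimation 0.84). WT held the widest gap, with a Cd81 UMI in 67% of thinned Ucn3-negative cells, against 27% of matched Ucn3-positive cells.

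Sox4, a factor of endocrine progenitors, stood at a log2 ratio of 0.14. Npy and Sox11 were under the limit of 10 UMIs in 3 of the 6 sums. A list of dedifferentiation genes gave 0 calls among 4 tested of 10, where 1.12% of all genes were called. Aldh1a3, an aldehyde dehydrogenase of failing beta cells, had 28.3, 16.0 and 4.15 CPM in Ucn3-negative cells, against 20.9, 16.2 and 2.37 CPM (log2 0.18). Of 20 genes that beta cells normally keep silent, such as Ldha and Hk1, only Lmo4 was high enough to be tested (log2 -0.50, edgeR adjusted p = 0.80).

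Cells with over 0.5% of UMIs from Pyy, a limit set after the data were seen, were more frequent in the Ucn3-negative class. They were 39 of 229 Ucn3-negative cells labelled ASF-KO (17.03%, 12.4 to 22.5), 44 of 478 labelled SC35-KO (9.21%, 6.77 to 12.2) and 14 of 100 in WT (14%, 7.87 to 22.4). Among matched Ucn3-positive cells they were 8 (3.49%, 1.52 to 6.77), 16 (3.35%, 1.93 to 5.38) and 6 (6%, 2.23 to 12.6). The Pyy-rich Ucn3-negative cells also held Ppy, the pancreatic polypeptide of gamma cells, at 3438, 4291 and 7553 CPM, against 356, 565 and 1315 CPM in the other Ucn3-negative cells. Their Mafa stood at 24.9, 45.9 and 13.3 CPM (18, 31 and 3 UMIs), against 175, 121 and 131 CPM in the other Ucn3-negative cells. Ins1 was lower in them, at 64754, 89569 and 81704 CPM, against 148487, 160933 and 120745 CPM, while Nkx6-1 was at 142, 178 and 195 CPM, against 122, 149 and 186 CPM. The few Pyy-rich matched Ucn3-positive cells also held Ppy, at 2340, 4985 and 6895 CPM. Ins1 was at 48472, 106885 and 110035 CPM in those cells, against 144546, 165084 and 130859 CPM in other matched Ucn3-positive cells. High Ppy and lower Ins1 were thus found in Pyy-rich cells of both classes. Mafa of the Pyy-rich matched Ucn3-positive cells was at 58.7, 122 and 141 CPM (8, 35 and 15 UMIs). On so few UMIs the Mafa levels of Pyy-rich cells are rough. In WT their exact Poisson intervals were 2.74 to 38.8 CPM (Ucn3-negative) and 78.6 to 232 CPM (matched Ucn3-positive).

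Without Pyy-rich cells of either class, 43 genes were higher and 32 lower by edgeR, and without cycling cells as well 25 and 33. Mafa then still passed (log2 -0.47, edgeR adjusted p = 3.1e-05), as did G6pc2 (-0.42, 1.8e-06), Slc2a2 (-0.28, 0.029), Trpm5 (-0.41, 0.018) and Rbp4 (1.53, 4.5e-09). Calls of Cd81, Ero1lb, Glp1r, Slc30a8 and Sytl4 did not hold. Pyy itself was called too (log2 0.63, edgeR adjusted p = 1.5e-08). Cells had been left out by their own Pyy share, so this value is a description and no separate support. The other Ucn3-negative cells had Mafa at 175, 121 and 131 CPM, against 233, 152 and 280 CPM in the other matched Ucn3-positive cells.

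**Figure D3:**
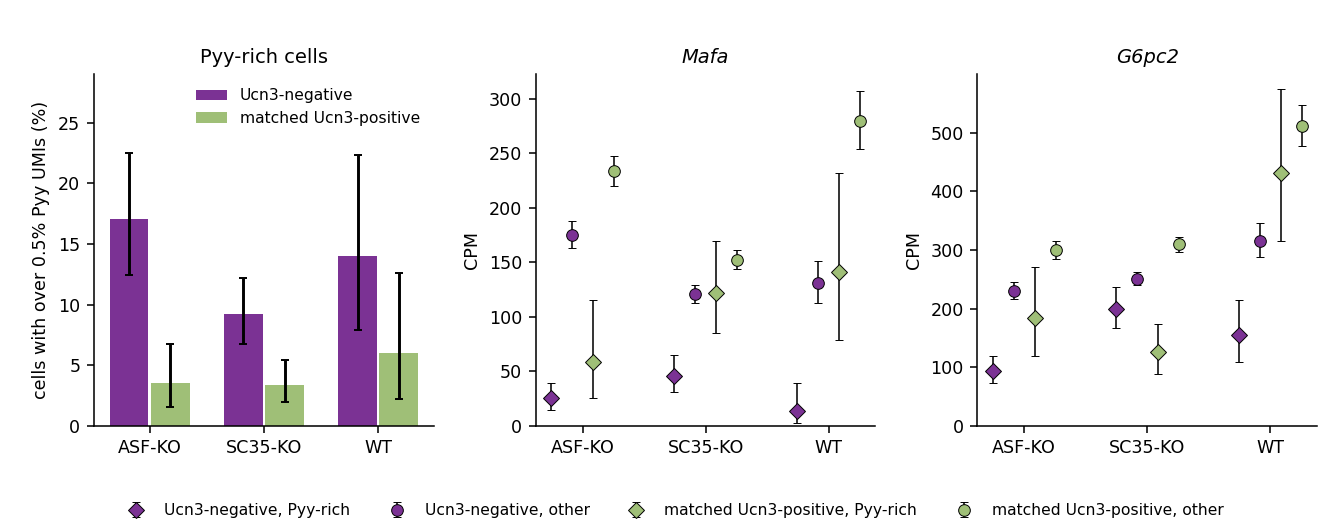
Left, share of cells with over 0.5% Pyy UMIs (%) among Ucn3-negative and matched Ucn3-positive cells of each library, with exact 95% binomial intervals; middle and right, Mafa and G6pc2 in CPM with exact Poisson intervals in Pyy-rich cells (diamonds) and other cells (circles). Pyy-rich cells are more frequent among Ucn3-negative cells, and Mafa of the other Ucn3-negative cells also lies below that of the other matched Ucn3-positive cells in each library.

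Both chromogranins rose, while no prohormone convertase passed the test. Of 13 tested granule and processing genes 2 rose and 1 fell, where 0.603% and 0.517% of all genes did, with a median log2 ratio of 0.04. Chgb, a granin that helps form secretory granules, had 1098, 667 and 793 CPM in Ucn3-negative cells, against 748, 501 and 543 CPM in matched Ucn3-positive cells. The 3 ratios were alike, the log2 ratio was 0.45 ± 0.05 (edgeR adjusted p = 5.1e-08), and the call held with robust estimation and DESeq2. Matched on insulin share as well, Chgb stood at a log2 ratio of 0.20 (edgeR adjusted p = 0.039), and in cells with 20000 UMIs or more at 0.22, where the call ended (edgeR adjusted p = 0.55). Chga had 7145, 3060 and 6998 CPM, against 4935, 2728 and 4129 CPM (log2 0.44, edgeR adjusted p = 1.6e-06, with robust estimation 0.59). Scg2, another granin, fell slightly (log2 -0.20, edgeR adjusted p = 0.0093), and its call ended without either library labelled KO. The convertases Pcsk1 (log2 0.12) and Pcsk2 (0.04) and the carboxypeptidase Cpe (0.01) did not pass. None of 18 tested genes of exocytosis and electrical activity was called, where 1.12% of all genes were. The channel subunits Abcc8 (-0.02) and Kcnj11 (-0.01), which couple glucose metabolism to membrane voltage, did not pass either.

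Other genes rose that stand in neither list above. Txnip, the glucose-induced inhibitor of thioredoxin, had 360, 184 and 158 CPM in Ucn3-negative cells, against 205, 110 and 109 CPM (log2 0.70 ± 0.06, edgeR adjusted p = 3.2e-11), and passed in each alternative but that without the library block. The tetraspanin Tspan8 had 27.7, 30.15 and 59.3 CPM, against 6.22, 19.9 and 14.2 CPM (log2 1.19, edgeR adjusted p = 4.6e-06, with robust estimation 0.60).

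Fxyd3, a regulator of the sodium pump, had 29.9, 35.8 and 58.1 CPM in Ucn3-negative cells, against 15.5, 21.1 and 20.1 CPM (log2 0.91, edgeR adjusted p = 1.6e-06). The folate receptor Folr1 had 53.2, 28.5 and 85.3 CPM, against 28.1, 19.9 and 17.8 CPM (log2 0.94, edgeR adjusted p = 1.2e-05, with robust estimation 0.59). Gpx3, a secreted glutathione peroxidase singled out after its values were seen, had 81.1, 40.5 and 94.8 CPM, against 59.4, 27.01 and 39.1 CPM (log2 0.60, edgeR adjusted p = 7.4e-05). In each of these 3 genes the gap was widest in WT. Further named genes that rose were the histone gene Hist3h2ba (log2 1.16), Car15 (0.94), Dbpht2 (0.69) and the actin-binding Tmsb10 (0.65). With robust estimation in edgeR the call of Car15 ended (adjusted p = 0.61), and it ended without Pyy-rich cells too.

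Gad1 and T2 were among the genes with the largest fall. Gad1, the enzyme that makes GABA, had 14.7, 16.6 and 30.2 CPM in Ucn3-negative cells, against 25.5, 28.0 and 69.3 CPM (log2 -0.92 ± 0.12, edgeR adjusted p = 1.8e-06). T2, whose name the files give without a role, had 4.62, 14.7 and 24.9 CPM, against 13.3, 24.1 and 64.0 CPM (log2 -1.08, edgeR adjusted p = 3.2e-06). Both were lower in each library and passed with robust estimation. Ppp1r1a, an inhibitor of protein phosphatase under cAMP control, had 129, 111 and 164 CPM, against 183, 136 and 248 CPM (log2 -0.48, edgeR adjusted p = 1.1e-06). The presynaptic protein Rims3 (log2 -0.65), Ttc28 (-0.58), the calcium-binding Cib3 (-0.50) and tenascin R (Tnr, -0.48) fell as well. Th, tyrosine hydroxylase, a mark of a beta cell subset, had 7.23, 9.05 and 13.04 CPM, against 17.5, 10.6 and 21.3 CPM (log2 -0.72, edgeR adjusted p = 0.029), and that call ended without the library labelled ASF-KO.

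Stmn1 and Hmgb2, known from dividing cells, rose as well. Cells with at least 3 UMIs over Mki67, Top2a, Ccnb1, Cdk1 and Birc5 numbered 0, 8 and 4 of the Ucn3-negative cells, against 1, 1 and 0 of the matched Ucn3-positive cells. Stmn1, a tubulin-binding protein of dividing cells, had 4.62, 22.1 and 53.3 CPM in Ucn3-negative cells, against 1.41, 3.14 and 4.15 CPM (log2 2.83, edgeR adjusted p = 3.6e-12). In WT 1 cell held 41.1% of the Stmn1 UMIs of the Ucn3-negative cells. Hmgb2, a chromatin protein, had 12.4, 21.2 and 83.0 CPM, against 7.63, 10.4 and 19.0 CPM (log2 1.23, edgeR adjusted p = 1.5e-06). Without cycling cells the calls of Stmn1 and Hmgb2 ended and 41 genes were higher in place of 63. Without Pyy-rich and cycling cells Stmn1 was called (log2 1.66, edgeR adjusted p = 0.045) and Hmgb2 was not. Ccnd2, the cyclin that adult mouse beta cells use, went the other way, with 417, 353 and 584 CPM in Ucn3-negative cells, against 472, 442 and 733 CPM (log2 -0.32, edgeR adjusted p = 8.7e-05).

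Stress lists held few calls in number, where 1.12% of all genes were called in either direction. In the integrated stress response 2 of 11 were called, a larger share. Of 20 tested ER chaperones and genes of the unfolded protein response 1 rose and 0 fell, where 0.603% and 0.517% of all genes did (median log2 0.05). Hspa5, the main ER chaperone, had 1256, 312 and 575 CPM in Ucn3-negative cells, against 1095, 266 and 439 CPM (log2 0.21, edgeR adjusted p = 0.022), and its call ended without the WT library and without the library labelled SC35-KO. Of 11 tested genes of the integrated stress response 2 fell and 0 rose, where 0.517% and 0.603% of all genes did. Nupr1, a stress-induced nuclear protein, had 66.9, 507 and 246 CPM, against 119, 607 and 396 CPM (log2 -0.56, edgeR adjusted p = 8.6e-07, with robust estimation 0.35). Atf5, a factor that this response induces, had 40.6, 122 and 133 CPM, against 61.0, 138 and 204 CPM (log2 -0.42, edgeR adjusted p = 0.00046). The upstream factor Atf4 (log2 -0.12) and its target Ddit3 (-0.05) did not pass. In the list of oxidative stress defence Txnip alone was called. Heat shock genes (0 of 11 in either direction), oxidative phosphorylation (0 of 18) and SR splicing factors (0 of 12; Srsf1 at 0.30 and Srsf2 at 0.15, neither past the test) held no call.

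Further lists held few calls in number, where 1.12% of all genes were called in either direction. Of the genes through which Ucn3 acts, only the somatostatin receptor Sstr3 had enough UMIs to be tested, with 43.8, 39.1 and 88.9 CPM in Ucn3-negative cells, against 37.1, 40.1 and 100.1 CPM (log2 -0.03), and the receptors Crhr1 and Crhr2 did not reach the limit. Of 7 tested genes of beta cell heterogeneity Cd24a rose (log2 1.05, edgeR adjusted p = 0.00087), a call that ended without the library labelled SC35-KO, and Th fell. The immediate early gene Jun rose (log2 0.23, 1 of 13 tested) and the glycolytic enzyme Pkm fell (log2 -0.24, 1 of 10), and both calls ended without the library labelled SC35-KO and without WT. That of Pkm also ended without the library labelled ASF-KO. Of 4 tested proliferation genes Ccnd2 was the 1 called. Metallothioneins (0 of 4), sterol and fatty acid synthesis (0 of 15), p53 targets (0 of 8) and antigen presentation (0 of 8) held no call.

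The same genes were read along the Ucn3 count, with Ucn3 counted after thinning every gated cell to 10000 UMIs and the other genes summed over full depth. Cells with 0, 1 to 2, 3 to 5 and 6 or more Ucn3 UMIs numbered 921, 1862, 884 and 86 under the label ASF-KO, 1129, 2194, 909 and 73 under the label SC35-KO and 356, 1602, 1727 and 620 in WT. Median depths of the classes ran from 25418.5 to 27655 UMIs under ASF-KO, 17438 to 19380 under SC35-KO and 22340.5 to 23553 in WT. In both libraries labelled KO the class with 6 or more was the shallowest. Mafa had 192, 213, 252 and 271 CPM along these classes in the library labelled ASF-KO, 126, 150, 167 and 211 CPM in the library labelled SC35-KO and 187, 222, 240 and 288 CPM in WT. It was higher in each class than in the one before in each library. G6pc2 had 260, 289, 311 and 321 CPM, then 262, 295, 317 and 393 CPM, and 434, 506, 544 and 618 CPM in WT, with the same order. Slc2a2, Ero1lb and Glp1r were ordered likewise in each library. No test was run on this order, since the classes share their libraries. Insulin was lower in the highest class. Ins2 had 487218, 473784 and 394881 CPM at 0 Ucn3 UMIs, against 465734, 443102 and 381393 CPM at 6 or more. A lower insulin share raises the CPM of other genes, and its part in this order was not tested.

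Pyy was highest in cells without Ucn3. It had 1177, 618, 360 and 98.9 CPM in the library labelled ASF-KO, 1125, 716, 507 and 611 CPM in the library labelled SC35-KO and 1513, 816, 598 and 470 CPM in WT. Rbp4 had 23.3, 19.4, 11.4 and 1.75 CPM, then 44.8, 27.6, 19.1 and 18.5 CPM, and 38, 28.3, 17.6 and 12.97 CPM in WT. Txnip had 193, 153, 131 and 123 CPM under the label ASF-KO and 143, 119, 109 and 135 CPM under the label SC35-KO. In WT Txnip had 114 CPM at 0 and between 91.6 and 103 CPM in the other classes. Nkx6-1 had 122, 122, 123 and 129 CPM under the label ASF-KO, and its highest class stood at 187 CPM under SC35-KO and 233 CPM in WT.

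**Figure D4:**
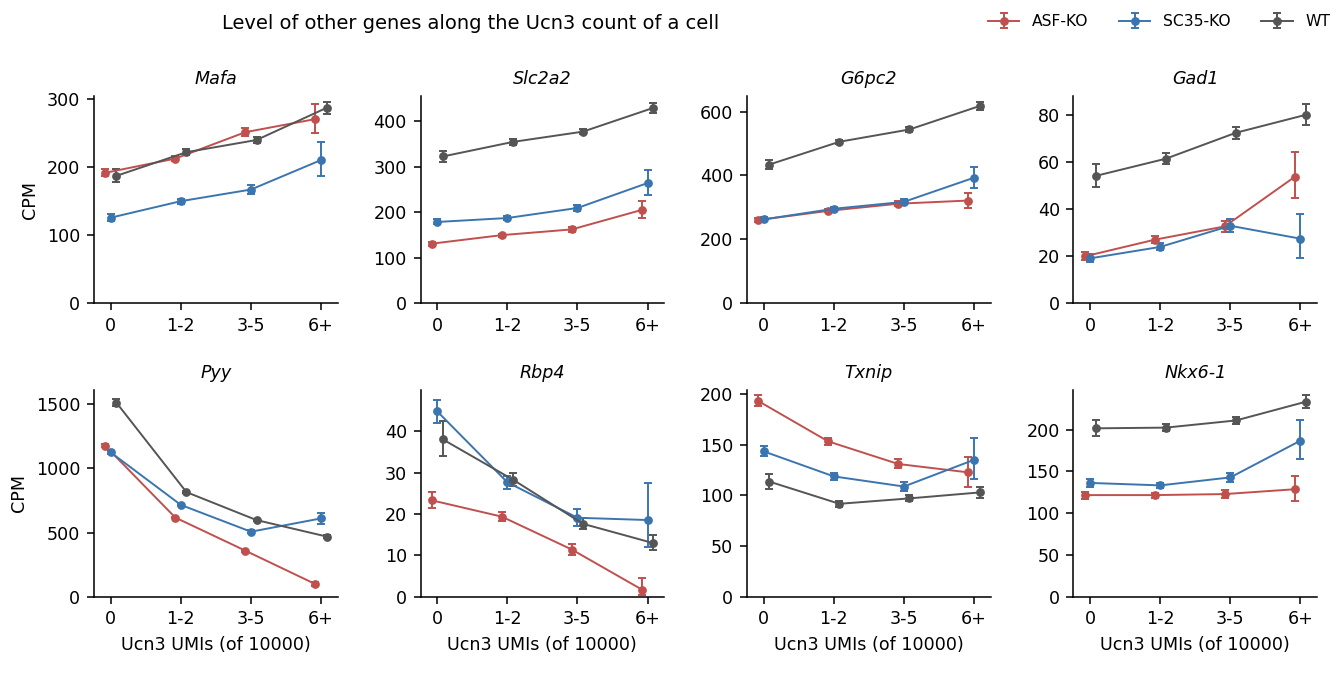
CPM with exact Poisson intervals (vertical axis) of 8 genes in gated beta cells with 0, 1 to 2, 3 to 5 and 6 or more Ucn3 UMIs after thinning to 10000 UMIs (horizontal axis), 1 line per library. Mafa, Slc2a2 and G6pc2 climb with Ucn3 in each library, and Pyy and Rbp4 are lower in each of the next 2 classes than at 0.

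Ucn3-negative cells of the libraries labelled KO were then set beside those of WT. There is no replicate, so ratios carry counting intervals only. The median of all genes with enough counts lay at a log2 ratio of -0.42 under ASF-KO and -0.51 under SC35-KO, and at -0.01 and -0.06 with totals taken outside insulin and mitochondrial genes. Ratios below are of CPM and are to be read against that shift. In the library labelled ASF-KO the ER genes Fkbp11 (137 CPM in Ucn3-negative cells labelled ASF-KO against 28.4 CPM in those of WT, ratio 4.81, 3.59 to 6.58), Sdf2l1 (166 against 39.7 CPM, 4.18) and Creld2 (88.7 against 26.1 CPM, 3.40) were highest by the lower bound, and Hspa5 had 1256 against 575 CPM (2.18, 2.04 to 2.34). In cells with 20000 UMIs or more the ratio of Fkbp11 was 9.44, and those of Sdf2l1 and Creld2 were 4.42 and 3.15. Matched Ucn3-positive cells gave ratios of 6.93, 5.70, 3.24 and 2.49 for Fkbp11, Sdf2l1, Creld2 and Hspa5. Mt1 and Mt2, which bind metals, were at 167 against 6147 CPM and 32.9 against 1660 CPM, with ratios of 0.03 and 0.02 in both classes.

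In the library labelled SC35-KO the stress gene Nupr1 had 507 against 246 CPM in Ucn3-negative cells (ratio 2.06, 1.86 to 2.28) and 607 against 396 CPM in matched Ucn3-positive cells (1.53). Pappa2, a protease of growth factor binding proteins, had 75.9 against 37.9 CPM (2.001, 1.54 to 2.63) and in matched Ucn3-positive cells 65.3 against 19.0 CPM (3.45). The lowest ratios were those of digestive enzymes such as Try4 (2.14 against 81.2 CPM) and Ctrb1 (5.40 against 89.5 CPM), which beta cells do not make. Matched Ucn3-positive cells had Ctrb1 at 5.78 against 97.2 CPM. Hbb-bs, a globin of red blood cells, gave the highest ratio, and 1 cell held 1443 of its 1446 UMIs.

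Several maturity genes stood higher relative to WT in Ucn3-negative than in matched Ucn3-positive cells. Mafa gave a ratio to WT of 1.33 (1.14 to 1.57) under ASF-KO and 0.995 (0.851 to 1.17) under SC35-KO in Ucn3-negative cells, against 0.844 (0.756 to 0.943) and 0.558 (0.501 to 0.623) in matched Ucn3-positive cells. G6pc2 gave 0.713 and 0.838, against 0.587 and 0.598. Slc2a2 gave 0.463 (0.406 to 0.530) and 0.779 (0.696 to 0.874), against 0.425 and 0.512, so its 2 classes were alike under ASF-KO. With totals taken outside insulin and mitochondrial genes the ratios under SC35-KO lay above 1 in Ucn3-negative cells, at 1.36 for Mafa, 1.15 for G6pc2 and 1.07 for Slc2a2. In Ucn3-negative cells with 20000 UMIs or more the CPM ratios under SC35-KO lay below 1, at 0.817, 0.688 and 0.642 for these genes. There Mafa gave 1.06 under ASF-KO, and WT held 21 such cells. Cd81 lay below WT in Ucn3-negative cells, with ratios of 0.480 (0.409 to 0.563) and 0.433 (0.373 to 0.503). In matched Ucn3-positive cells the Cd81 ratios were 1.26 (0.958 to 1.68) and 1.51 (1.17 to 1.98), and the interval under ASF-KO spans 1. These differences between classes were not tested. Median depth of the Ucn3-negative cells differed between the libraries as given above. The number of cells that a uniform Ucn3 level would leave at 0 differed too. It was 71.2, 278 and 12.3, beside 229, 478 and 100 Ucn3-negative cells seen. The part of either was not tested.

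**Figure D5:**
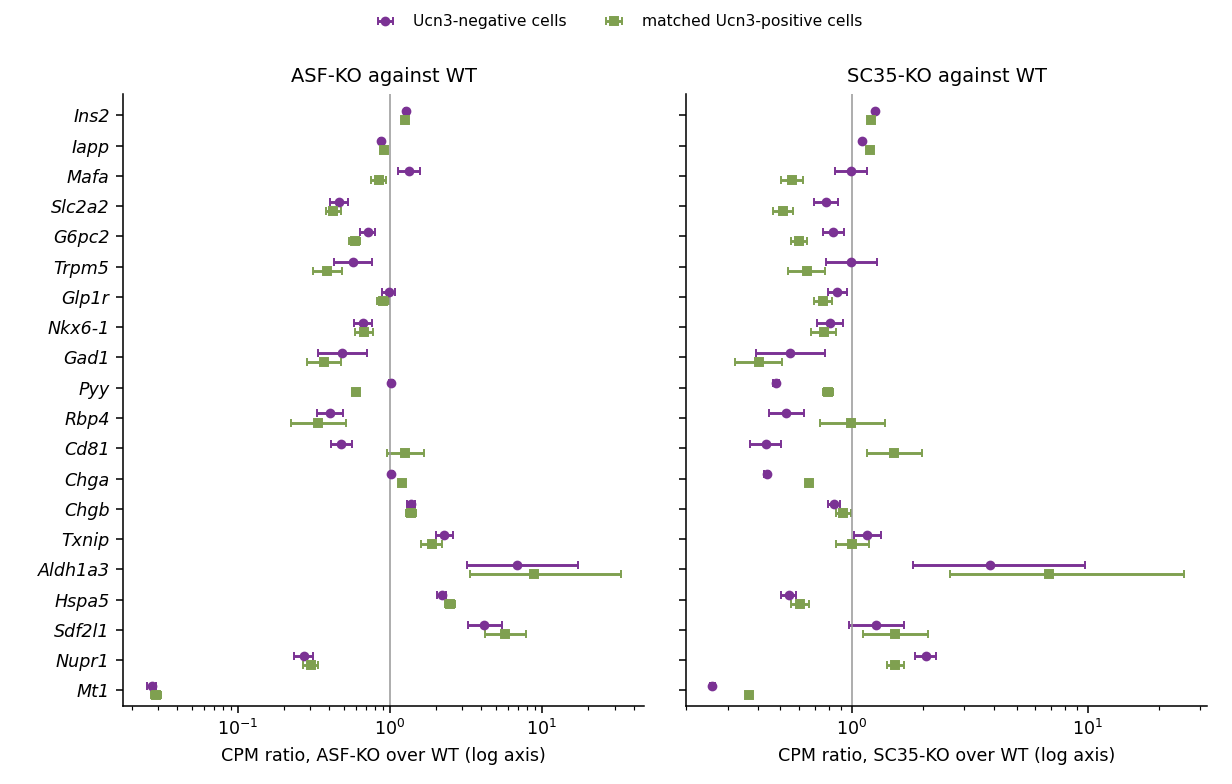
Ratio of CPM in the library labelled ASF-KO (left) or SC35-KO (right) over WT on a log axis, for 20 genes in rows, in Ucn3-negative cells (circles) and matched Ucn3-positive cells (squares) with exact 95% counting intervals. The points of Mafa, Slc2a2, G6pc2 and Trpm5 lie higher in Ucn3-negative cells, but under ASF-KO the intervals of Slc2a2 and Trpm5 overlap between the classes. Those of Sdf2l1 overlap in both panels.

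Markers of other cell types were read over whole lists, beside the 1.12% of all genes that were called. Acinar markers summed to 295, 33.0 and 515 CPM in Ucn3-negative cells, against 291, 31.3 and 492 CPM in matched Ucn3-positive cells, and 0 of 10 were called. Alpha markers other than Gcg summed to 1129, 833 and 876 CPM, against 1029, 945 and 880 CPM, with 0 of 5 tested called. Delta markers other than Sst summed to 44.6, 60.8 and 111 CPM, against 10.4, 31.2 and 31.4 CPM, almost all of it Rbp4. Sst, which the gate limits, stood at 119, 412 and 406 CPM in Ucn3-negative cells, against 141, 429 and 746 CPM. Ppy, which the gate limits, was at 804, 881 and 2151 CPM, against 261, 639 and 1022 CPM, and moved with Pyy. Whether cells with a gamma program account for the Pyy and Ppy values was not tested.

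Endothelial markers summed to 25.7, 9.55 and 40.3 CPM in Ucn3-negative cells, against 6.02, 15.2 and 43.8 CPM, and macrophage markers to 46.4, 60.1 and 36.7 CPM, against 40.8, 49.3 and 53.3 CPM. Ductal markers summed to 178, 132 and 216 CPM, against 152, 131 and 165 CPM. T and B cell markers summed to 13.9, 16.8 and 71.7 CPM, against 18.7, 16.7 and 32.0 CPM, with Cd3g and Ms4a1 at 0 in Ucn3-negative cells of all 3 libraries. Mesenchymal markers summed to 0, 0.251 and 3.56 CPM, against 0.402, 3.02 and 7.70 CPM, with Col1a1, Pdgfrb and Rgs5 at 0 in Ucn3-negative cells. No tested member of the ductal (3 tested of 5), endothelial (5 of 7), macrophage (3 of 7) or T and B cell (1 of 7) lists was called. No mesenchymal marker had enough UMIs to be tested. Over all genes tested 1.12% were called, so lists this short would seldom hold a call. The part of such cells in the results was not tested.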

How the data were processed

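The deposited files are 10x matrices of UMI counts per gene and barcode, 1 per library, made by the authors with Cell Ranger 5.0.0 and STAR on mm10, with Seurat also named, per the submitters' processing notes. The counts were used as deposited, 148320213, 150116204 and 154099078 UMIs in the libraries labelled ASF-KO, SC35-KO and WT, and 0 sample columns were left unmapped.

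Cells were gated, matched 1 to 1 on log10 UMIs within 0.05, and thinned to 10000 UMIs where shares of cells were compared (python 3.11.15, scanpy 1.11.5 for Scrublet). UMIs were summed per library and class. Genes with at least 10 UMIs in at least 3 of 6 sums were fitted in edgeR 4.0.16 (R 4.3.3; TMM factors, quasi-likelihood test, library as block), with Benjamini-Hochberg adjustment over all 10443 genes. DESeq2 1.42.0 was an alternative. Tested on simulated data over 10220 genes, the fit called 83 of 100 genes changed 1.5-fold, 99 of 100 changed 2-fold and 6 of 10020 unchanged genes. The simulation gave all genes 1 common dispersion (0.0021) and changed only well-counted genes, each by the same fold in all 3 libraries. It therefore cannot show how the fit treats genes that vary unevenly between libraries. Doublets were marked and kept. Between genotypes no test was made, since each has 1 library. The p-values rest on spread among 3 libraries of different genotype, and that spread is drawn mostly from all genes together. The mean prior degrees of freedom were 37.9, against 2 residual degrees of freedom per gene. A small p-value therefore does not by itself show that a gene varied little among the libraries.

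The members and gene lists were chosen with earlier results of these data known. Named genes are the 12 highest and 12 lowest by log2 ratio with an adjusted p under 0.05, at least 20 CPM in a class mean and 1 sign in all 3 libraries. Gate, mitochondrial, ribosomal and sex-linked genes and unnamed models were left out of that rule. To these were added from each list the 3 members of highest mean CPM and up to 4 called members. Between genotypes the 6 highest and 6 lowest genes of at least 50 CPM by the interval bound nearest to 1 were added. Genes outside the rule are marked in the text. Alternatives chosen after the data were seen were robust estimation, leaving out Pyy-rich or cycling cells, and a 0.2% hormone limit.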

Additional observations from a re-analysis of the deposited data

How the results depend on the processing

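Of 49 named genes called by edgeR none changed direction under any alternative. The fit without the library block ended 49 of these calls, a minimum of 20000 UMIs (which leaves 21 WT cells) 43, and robust estimation 10. DESeq2 ended 14, kept 13 and gave the others no adjusted p. The 6 calls kept at a minimum of 20000 UMIs were those of Mafa, Nupr1, Pyy, Txnip, Stmn1 and Hmgb2. Genes higher in Ucn3-negative cells (63) numbered 5 with DESeq2, 116 with no filter on low counts, 155 not matched on depth, 9 at a minimum of 20000 UMIs, 0 without the library block, 41 without cycling cells, 25 without Pyy-rich and cycling cells, and 39 with Ppy, Sst and Gcg each under 0.2%. Genes lower (54) numbered 35 with totals and no factor, 9 with DESeq2, 122 not matched on depth, 82 against positives with 3 or more Ucn3 UMIs, 3 at a minimum of 20000 UMIs, 0 without the library block, 32 without Pyy-rich cells and 33 without cycling cells as well. With 1 library left out they numbered 51 to 54 and 43 to 47.

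The maturity list's median of -0.22 was -0.17 with totals and no factor, -0.14 matched on insulin share as well, -0.14 at a minimum of 20000 UMIs and -0.15 without Pyy-rich and cycling cells. The immature list's median of 0.61 was 1.21 matched on UMIs outside insulin and mitochondrial genes, 0.11 at a minimum of 20000 UMIs, and 0.52 to 1.04 with 1 library left out. The granule list's median of 0.04 was 0.092 with totals and no factor, 0.032 with no filter, 0.025 not matched on depth, 0.024 matched on UMIs outside insulin, 0.072 against positives with 3 or more Ucn3 UMIs, 0.026 at a minimum of 20000 UMIs, 0.026 without Pyy-rich cells, 0.060 without cycling cells, 0.027 under the hormone limit, and 0.053 to 0.065 with 1 library left out. Medians changed sign for dedifferentiation genes (0.50; -0.015 at a minimum of 20000 UMIs, and -0.33 to 0.87 with 1 library left out), heterogeneity genes (-0.24; 0.023 matched on insulin share), the integrated stress response (-0.17; 0.029 at a minimum of 20000 UMIs) and metallothioneins (-0.19; -0.29 to 0.095 with 1 library left out, the highest without the library labelled SC35-KO).

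Shares of Ucn3-negative cells thinned to 10000 UMIs were 24.5%, 26.2% and 8.27% for ASF-KO, SC35-KO and WT, and 4.03%, 5.85% and 0.683% at a minimum of 20000 UMIs. Without Pyy-rich cells the ASF-KO share was 5.24%, and with insulin at 40% or more the WT share was 1.87%. The median log2 ratio to WT was -0.014 (ASF-KO) and -0.056 (SC35-KO) with totals outside insulin and mitochondrial genes. Under median-of-ratios scaling it was 0.055 (ASF-KO) and -0.0056 (SC35-KO). Of the single-gene ratios to WT recomputed under the alternatives, 18 left their counting interval and 18 did not (ASF-KO), and 15 did and 20 did not (SC35-KO). The cause of these moves was not tested. The fit of Ucn3-negative against Ucn3-positive sums is paired within each library. Between genotypes no paired analysis was possible because each has 1 library. WT rests on the fewest Ucn3-negative cells, 100.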

Other observations

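Some genes outside the lists also differed between Ucn3-negative and matched Ucn3-positive cells, and they were chosen after their values were seen. Atp2a2, the calcium pump of the ER, had 327, 296 and 382 CPM in Ucn3-negative cells of the libraries labelled ASF-KO, SC35-KO and WT, against 432, 344 and 501 CPM (log2 -0.38, edgeR adjusted p = 1.2e-05). Mthfd2, a mitochondrial folate enzyme, had 19.1, 36.2 and 45.6 CPM, against 28.7, 44.4 and 69.3 CPM (log2 -0.47, edgeR adjusted p = 0.0044), a call that ended without the library labelled ASF-KO. Gata6, a factor of pancreas development, had 11.04, 10.7 and 23.7 CPM, against 4.82, 5.91 and 7.70 CPM (log2 1.06, edgeR adjusted p = 0.00051), a call that ended without Pyy-rich cells.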
